A study of Drosophila melanogaster with 6 samples.

Results

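The heat shock proteins and chaperones were examined as 36 genes of the 17737 counted in each library. A gene was taken as a member where its symbol in the authors' comparison table began with Hsp and a digit, Hsc70, DnaJ- or CCT, or was l(2)efl; no gene had a symbol beginning with TCP1. By family these were 7 small heat shock proteins, 7 inducible HSP70 genes, 6 cognate HSC70 genes, 3 J proteins, 1 HSP90, 4 HSP60 genes and 8 subunits of the chaperonin CCT. All 36 passed the filter on low counts, which kept 13373 genes.

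Both diets were fed to adult virgin males of the genotype w1118, raised before eclosion on standard cornmeal and then kept for 20 days at 25°C on a defined diet, the holidic food. The first diet was unmodified holidic food (HF), and to the second glucose was added at 50 g/L (GSF). RNA came from 5 whole flies per library, pooled, with 3 libraries per diet numbered 1 to 3 on each. The comparison asks which transcripts differ in level when glucose is added.

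Chaperones bind unfolded or partly folded proteins. Small heat shock proteins hold them in a soluble state, HSP70 folds them in cycles of ATP hydrolysis with J proteins as partners, HSP90 matures signalling proteins, HSP60 folds proteins in mitochondria, and the CCT ring folds actin and tubulin in the cytosol. Under stress the heat shock factor Hsf switches on the inducible genes strongly, while the cognate genes are transcribed in unstressed cells. In the adult fly, small heat shock genes are among those known to become more active with age.

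The libraries held 51826530 to 66493536 counts, so that 3 counts correspond to 0.0449 to 0.0584 CPM (counts scaled to a common library size of 1e+06, here with the TMM factors of edgeR). Annotated ribosomal RNA genes took 15.8% to 16.4% of the counts on HF and 18.3% to 21.9% on GSF. All 7 testis markers and all 5 accessory gland markers were tested, while 4 of 6 female germline and yolk markers stayed under the filter, so the libraries matched their label of male flies. Since whole flies were used, fewer cells of a type and less RNA per cell cannot be told apart. The study's methods call the libraries biological replicates, but no source used here says whether those of a diet came from separate cultures, so p-values measure the spread between these libraries.

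None of the 36 members passed the threshold of the comparison in the fit without a replicate block. Calls required a p under 0.01 in the quasi-likelihood test of edgeR together with an adjusted p (Benjamini-Hochberg) under 0.05, and 0 of the 36 members met this, against 5.14% of all genes tested. At an unadjusted p under 0.05 there were 3 members (Hsc70-3, l(2)efl and Hsp26, each lower on GSF), against 19.7% of all genes. DESeq2 called these same 3 members at the same thresholds, against 8.0% of its 17283 genes. That share also covers genes under the filter on low counts, unlike the shares over the 13373 genes. A fit blocked on replicate number called 3 members (Hsc70-3 lower, CCT1 and CCT2 higher on GSF), against 13.3% of all genes. By point estimate 14 members were higher and 22 lower on GSF, and log2 fold changes ran from -0.64 to 0.26 around a median of -0.04. The median over all genes tested was 0.01.

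**Figure D1:**
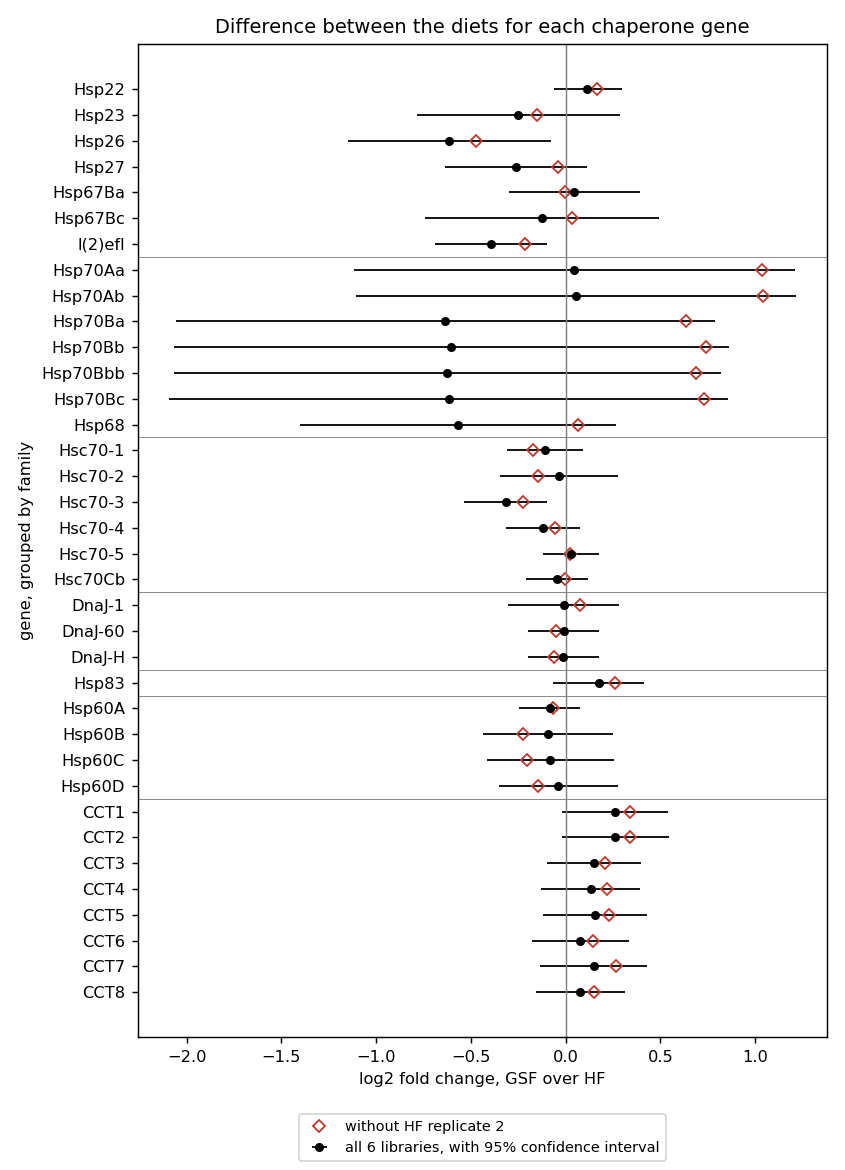
The log2 fold change of GSF over HF is plotted for each of the 36 genes, with a bar for its 95% confidence interval, and an open diamond gives the value without HF replicate 2. The intervals of the inducible HSP70 genes are the widest in the plot, and all 7 of their diamonds lie to the right of the corresponding points.

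In 5 members the 3 libraries of one diet did not overlap those of the other, against 25.2% of all genes. Hsp22, CCT1 and CCT2 were the members with all GSF libraries above all HF libraries, and l(2)efl and Hsc70-3 those with all GSF libraries below. With 3 libraries per diet, 0.1 is the smallest p that exact permutation of the labels allows.

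The replicates of the members spread further on HF than on GSF. The median coefficient of variation of the members was 16.1% among HF libraries and 6.68% among GSF libraries, where the medians over all genes tested were 8.47% and 7.45%. In 31 of 36 members (86.1%) the HF libraries varied more than the GSF libraries, as they did in 58.8% of all annotated genes tested. The HF coefficient was at least 2 times that of GSF in 22 members (61.1%) and in 22.3% of all genes. This difference in spread was not tested. It was present in all 7 inducible HSP70 genes, in 6 of 7 small heat shock genes and in 7 of 8 CCT genes, and in 1 of 6 cognate HSC70 genes. These members are not independent of each other, since the 6 Hsp70 copies can share reads and genes of a family often moved together. The inducible HSP70 genes were high in HF replicate 2, the CCT genes low in HF replicate 3, and Hsp23 and Hsp26 low in HF replicate 1.

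**Figure D2:**
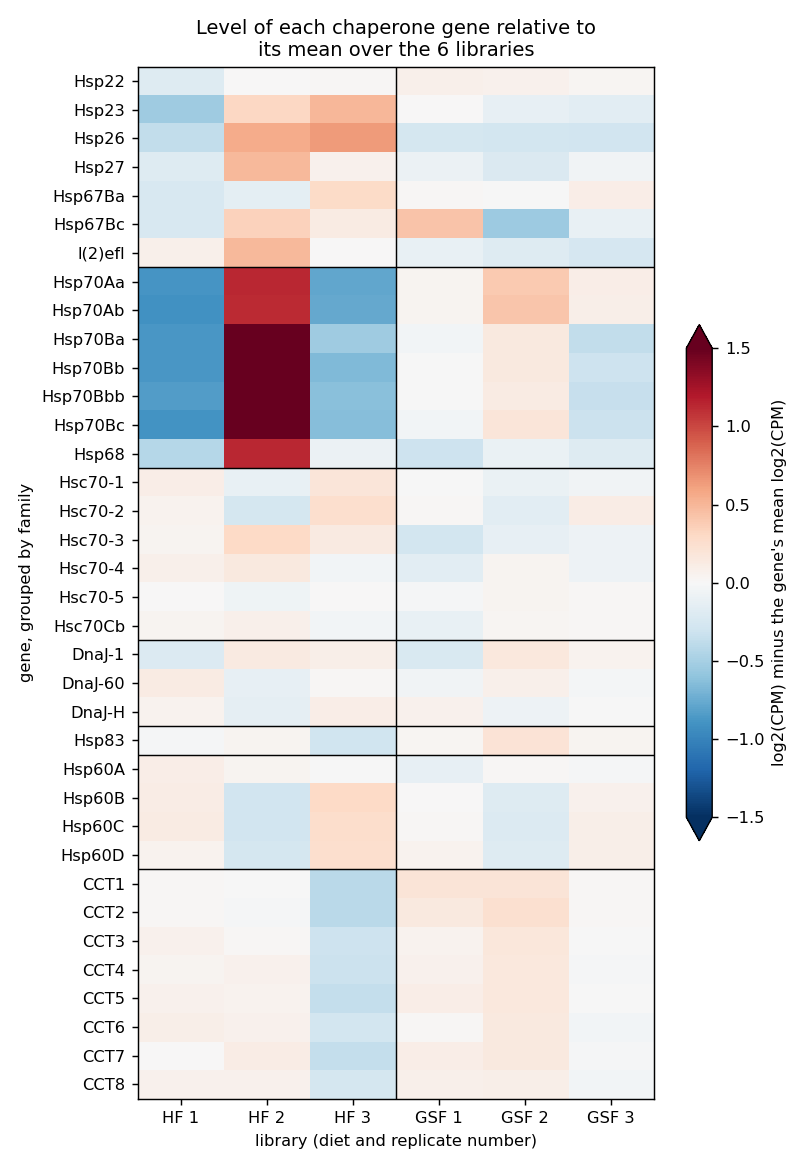
Each row is a gene and each column a library, and the colour is the log2 CPM of the gene in that library minus its mean over the 6 libraries (the scale ends at 1.5, and 4 genes in HF replicate 2 lie at or past its end). The 7 inducible HSP70 genes are highest in HF replicate 2, the 8 CCT genes are lowest in HF replicate 3, and in 31 of 36 genes the HF columns vary more than the GSF columns.

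Many of the stress-inducible members also lacked introns. A single block of exon, with no intron left once the exons of all transcripts were merged, was found for 15 of 36 members (41.7%) and for 18.1% of all annotated genes tested. These 15 comprised the 7 inducible HSP70 genes, 5 of 7 small heat shock genes, Hsp60B, Hsp60D and DnaJ-1, whereas none of the 6 cognate HSC70 and 8 CCT genes had this structure. The median coefficient of variation on HF was 33.9% for the members with a single block and 12.7% for the others, and on GSF 13.4% and 5.68%. Among all genes the same medians were 13.8% and 7.77% on HF, and 9.78% and 7.04% on GSF. The 7 inducible HSP70 genes had medians of 101% on HF and 15.3% on GSF. As their 6 Hsp70 copies can share reads, the medians of the 15 members may count the same signal more than once. For the single-block genes of the small heat shock family the medians were 24.5% and 5.96%, and for those of the HSP60 family 18.6% and 9.91%. DnaJ-1 was at 12.5% and 13.4%.

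Of the small heat shock genes, 6 lie within 14.2 kb of chromosome 3L (9371511 to 9385694, BDGP6.54), in the order Hsp67Bc, Hsp22, Hsp26, Hsp67Ba, Hsp23 and Hsp27, and l(2)efl lies on 2R (23684651 to 23685543). The family had 2 members higher and 5 lower on GSF, with a median log2 fold change of -0.25. This median was -0.04 without HF replicate 2 and -0.41 without HF replicate 1.

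The gene l(2)efl, a relative of alpha-crystallin B, had the highest level per length of the family, with 165 CPM per kb of exon on HF and 126 on GSF. Its level was 112, 149 and 107 CPM in the HF libraries and 98.0, 92.6 and 89.0 CPM in the GSF libraries. All GSF libraries lay below all HF libraries, and replicate 3 was the lowest on both diets. The log2 fold change was -0.39 ± 0.13 (SE), with a 95% interval from -0.69 to -0.10 and an adjusted p of 0.136 in the quasi-likelihood test of edgeR, and DESeq2 gave an adjusted p of 0.0449. Without HF replicate 2 the value was -0.21 (adjusted p 0.228 in edgeR). Its exons overlap 75 bp of St3 on the other strand, a gene with 33.5% as many counts.

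Hsp26, a cytosolic small heat shock protein, had 55.7, 106 and 112 CPM in the HF libraries. On GSF the level was 59.997, 59.8 and 59.3 CPM. The GSF libraries were nearly level, while HF replicate 1 lay below them and the other HF libraries far above. The log2 fold change was -0.61 ± 0.23 (SE; 95% interval -1.15 to -0.08), with an adjusted p of 0.194 in edgeR and 0.0459 in DESeq2. Without HF replicate 1 it was -0.87 with an adjusted p of 0.0209, past the threshold, in a fit that called 1.27% of all genes and no other member.

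Hsp23, its neighbour in the cluster, had 43.2, 77.1 and 88.4 CPM on HF and 62.5, 57.2 and 55.9 CPM on GSF. The order of the HF libraries was that of Hsp26, with replicate 1 lowest, and the diets overlapped (log2 fold change -0.25 ± 0.23, SE). This value was -0.50 without HF replicate 1 and -0.04 without HF replicate 3. Hsp27, found in the nucleus, had 38.8, 62.5 and 46.6 CPM on HF and 41.9, 38.2 and 42.9 CPM on GSF. There replicate 2 was the high HF library, and the log2 fold change of -0.26 ± 0.16 (adjusted p 0.440 in edgeR) was -0.04 without it.

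Hsp22, a mitochondrial small heat shock protein, had 131, 151 and 152 CPM on HF and 159, 157 and 154 CPM on GSF. All GSF libraries were above all HF libraries, but narrowly, and the log2 fold change was 0.12 ± 0.08 (SE) with an adjusted p of 0.494 in edgeR, and 0.05 without HF replicate 1. All 1900 bp of its exons are shared with CG4456 on the same strand, which had 101% as many counts, so the counts cannot be assigned to either gene alone. The remaining pair, Hsp67Ba and Hsp67Bc, stayed between 1.30 and 6.22 CPM in every library. Hsp67Ba also shares 1316 bp with an antisense transcript on the other strand, asRNA:CR43481, and whether the counting used strand is not given in the sources used here.

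The inducible HSP70 genes stood apart from the rest through a single library. Hsp70Aa and Hsp70Ab lie within 6.7 kb on chromosome 3R (11954163 to 11960909), Hsp70Ba, Hsp70Bbb, Hsp70Bb and Hsp70Bc lie within 46.0 kb further along the arm (12465453 to 12511461), and Hsp68, their heat-inducible relative, is on the same arm (24055080 to 24057310). The 6 Hsp70 copies are nearly identical in sequence, so reads can be shared or lost between them, and how such reads were counted is not given in the sources used here. Their levels are therefore also given summed.

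Summed over the 6 copies, Hsp70 stood at 332, 1820 and 383 CPM in HF replicates 1 to 3 and at 606, 708 and 526 CPM in the GSF libraries. HF replicate 2 was 5.09 times the mean of the other HF libraries and 2.57 times the highest of the other 5 libraries. Leaving it aside, both HF libraries were below all GSF libraries. The summed copies had a log2 fold change of -0.46 ± 0.60 (SE; 95% interval -1.85 to 0.93) with an adjusted p of 0.775 in edgeR.

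Among the B copies, Hsp70Bb had the highest level per length (94.8 CPM per kb on HF and 62.4 on GSF) and Hsp70Ba the lowest (16.6 and 10.7). Hsp70Bb was at 82.0, 490.0 and 95.4 CPM on HF and at 150, 167 and 122 CPM on GSF. Hsp70Bbb was at 80.0, 463 and 92.5 CPM on HF and at 142, 156 and 113 CPM on GSF. In both, HF replicate 2 was the highest library of the 6 and the other HF libraries were the lowest. Hsp70Bc was at 76.3, 464 and 91.2 CPM on HF and at 138, 160 and 113 CPM on GSF. Hsp70Ba was at 14.3, 83.5 and 18.0 CPM on HF and at 25.4, 29.0 and 20.2 CPM on GSF. The order of the libraries was the same in all of the B copies, and their log2 fold changes lay between -0.64 and -0.60 with standard errors of 0.61 to 0.63.

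The A copies had a like order with a smaller rise in HF replicate 2. Hsp70Aa was at 40.6, 163 and 43.4 CPM on HF and at 76.6, 98.4 and 80.2 CPM on GSF. Hsp70Ab was at 38.8, 158 and 42.8 CPM on HF and at 74.7, 96.5 and 77.4 CPM on GSF. HF replicate 2 was 3.86 and 3.89 times the mean of the other HF libraries for the A copies, and 5.16 to 5.54 times for the B copies. The log2 fold changes were 0.05 ± 0.50 and 0.05 ± 0.50 (SE). Over the 6 copies the adjusted p lay between 0.671 and 0.983 in edgeR.

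The balance of the copies differed between the libraries. The summed A copies stood at 31.4%, 21.4% and 29.0% of the summed B copies on HF and at 33.2%, 38.0% and 42.7% on GSF. All GSF libraries were above all HF libraries, and in 25.2% of all genes tested the diets did not overlap either. Within each cluster the ratios were steady. Hsp70Ab stood at 95.5% to 98.7% of Hsp70Aa over the 6 libraries, and Hsp70Ba at 16.5% to 18.9%, Hsp70Bbb at 92.6% to 97.6% and Hsp70Bc at 92.2% to 96.1% of Hsp70Bb. As reads can be shared or lost between near-identical copies, these ratios of counts may not give the levels of single copies. The ratios within and between the clusters were chosen after their values were seen and were not tested.

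**Figure D3:**
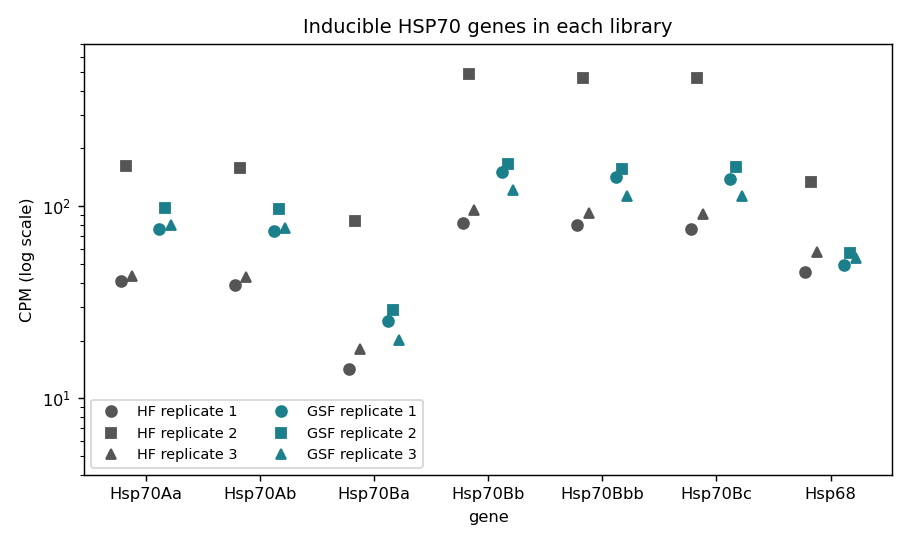
The level of each inducible HSP70 gene is plotted for each library in CPM on a log axis, with HF in grey and GSF in teal and a symbol for each replicate number. HF replicate 2 (grey square) is the highest point of every gene, and for the 6 Hsp70 copies the other HF libraries are the lowest points.

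Hsp68 was at 45.6, 134 and 57.9 CPM on HF and at 49.5, 57.1 and 53.6 CPM on GSF. Here too HF replicate 2 was the high library, while the others overlapped. The log2 fold change was -0.57 ± 0.36 (SE; adjusted p 0.462 in edgeR) with all libraries and 0.06 without HF replicate 2.

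The direction of the inducible HSP70 family thus rested on HF replicate 2. Its median log2 fold change was -0.60 with all libraries, 0.73 without HF replicate 2, and between -0.999 and -0.497 when any other library was left out. Without HF replicate 2, Hsp70Aa (1.04, adjusted p 0.0148), Hsp70Ab (1.04, adjusted p 0.0148) and Hsp70Bb (0.74, adjusted p 0.0442) were past the threshold as higher on GSF in edgeR, in a fit that called 3.02% of all genes and no other member. That fit compares 2 HF libraries with 3 GSF libraries, and the spread on HF then comes from the remaining pair.

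In HF replicate 2, 38 genes (0.284% of those tested) were at least 2-fold above the mean of the other HF libraries, and in the other libraries this share lay between 0.112% and 0.292%. Of these 38 genes 7 were the inducible HSP70 genes, where no other library had any member at this level. In HF replicate 2, 8 genes were at least 2-fold above every other library, and 5 of these were Hsp70Ba, Hsp70Bb, Hsp70Bbb, Hsp70Bc and Hsp68. As reads can be shared between the Hsp70 copies, both tallies may count the same signal more than once. The library had 57504428 counts, an rRNA share of 16.4% as in HF replicate 3, and a scaling factor of 1.01. It also had the lowest testis marker sum of the 6 libraries (871 CPM), and 22.4% of all genes were lowest in it. Its marker sums were the highest for gut enterocytes (2880 CPM), fat body (4290 CPM) and eye (3320 CPM). The gut sum was mainly Mal-A1 (2060 CPM) and betaTry (778 CPM), while mex1 and Vha100-4 were not highest in this library. Of the tested fat body markers only FASN1 (2410 CPM) was highest in it. There apolpp was at 1520 CPM, against 2000 CPM in GSF replicate 2, and Lsp2 at 360 CPM, against 604 CPM in HF replicate 3. The part of these differences in the HSP70 levels was not tested. Hsf itself was at 40.6, 43.1 and 39.0 CPM on HF and at 40.4, 42.5 and 42.8 CPM on GSF, with a log2 fold change of 0.03 ± 0.07 (SE). Replicate 2 was the highest library on both diets in 13 of 36 members, among them all 7 inducible HSP70 genes, against 14.3% of all genes tested.

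The cognate HSC70 genes, which serve unstressed cells, had a median coefficient of variation of 8.0% among HF libraries, where that of the inducible HSP70 genes was 101%. Hsc70-4, the main cytosolic member, had the highest level per length of all 36 genes, with 941 CPM per kb on HF and 866 on GSF. It was at 2580, 2710 and 2380 CPM on HF and at 2200, 2520 and 2330 CPM on GSF. The diets overlapped, with a log2 fold change of -0.12 ± 0.08 (SE; adjusted p 0.513 in edgeR), and -0.06 without HF replicate 2. Hsc70-1, Hsc70-2, the mitochondrial Hsc70-5 and Hsc70Cb, a member of the HSP110 branch that exchanges nucleotide on HSP70, had log2 fold changes from -0.11 to 0.03, and their libraries overlapped between the diets.

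Hsc70-3, the HSP70 of the endoplasmic reticulum known as BiP, had the smallest p of the 36 members. It was at 741, 890 and 795 CPM on HF and at 596, 664 and 687 CPM on GSF. All GSF libraries lay below all HF libraries. The log2 fold change was -0.32 ± 0.09 (SE; 95% interval -0.53 to -0.10) with an adjusted p of 0.106 in edgeR, and it lay between -0.38 and -0.23 when each library was left out in turn. In the fit with replicate number as a blocking term, its adjusted p was 0.0299 and the gene was past the threshold, as given above. DESeq2 called it as well, with an adjusted p of 0.0352.

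Other chaperones of the endoplasmic reticulum were read from the list of related chaperone genes, which held 68 tested genes. Of these, 29 were higher and 39 lower on GSF with a median log2 fold change of -0.01. By the threshold in edgeR 0 were called higher (0 also by DESeq2) and 1 lower, against 2.0% of all genes called higher and 3.14% called lower. At an unadjusted p under 0.05 there were 3 higher and 7 lower, against 9.77% and 9.9% of all genes. The gene called was CaBP1, a protein disulfide isomerase. The group of organelle relatives in that list, which holds the chaperones of the endoplasmic reticulum and of mitochondria, had 9 of 10 genes lower on GSF, where 47.7% of all genes tested were lower. Of its 10 genes 1 was called lower and 5 were lower at an unadjusted p under 0.05, to be read against the shares just given, and its median was -0.14.

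CaBP1 was at 169, 190 and 157 CPM on HF and at 130, 131 and 137 CPM on GSF. No library overlapped, and the log2 fold change was -0.37 ± 0.08 (SE) with an adjusted p of 0.0496 in edgeR, close to the threshold. When single libraries were omitted, it stayed past the threshold without HF replicate 3 (adjusted p 0.0421), and the adjusted p lay between 0.131 and 0.151 in the other 5 fits. Gp93, the HSP90 of the same compartment, was at 502, 561 and 471 CPM on HF and at 377, 402 and 418 CPM on GSF (log2 fold change -0.36 ± 0.09, SE; adjusted p 0.0604 in edgeR). P58IPK, a J protein partner of BiP, was at 129, 151 and 118 CPM on HF and at 94.2, 102 and 108 CPM on GSF (-0.39 ± 0.10, SE; adjusted p 0.0784 in edgeR). Both lay wholly lower on GSF, and both were past the threshold with the replicate block (adjusted p 0.0330 and 0.0428) and in DESeq2 (0.00544 and 0.0137).

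The disulfide isomerase Pdi was at 864, 914 and 789 CPM on HF and at 700, 727 and 731 CPM on GSF (-0.25 ± 0.08, SE; adjusted p 0.116 in edgeR). The lectin chaperone Calr was at 737, 810 and 675 CPM on HF and at 641, 622 and 603 CPM on GSF (-0.25 ± 0.08, SE; adjusted p 0.144 in edgeR), and its value was -0.17 without HF replicate 2. Neither overlapped between the diets, and DESeq2 called Pdi (adjusted p 0.0390). Over Hsc70-3 and 11 related genes of the endoplasmic reticulum (Gp93, Grp170, P58IPK, Sec63, Sil1, Calr, Cnx99A, Pdi, ERp60, CaBP1 and prtp), a grouping chosen after its values were seen and therefore not tested, all 12 had every GSF library below every HF library, where 12.9% of all genes did. Their median log2 fold change was -0.25, and -0.16 without HF replicate 2. The differences were small for some, with -0.07 ± 0.06 for Cnx99A and -0.09 ± 0.06 (SE) for prtp. Of all 68 related genes tested, 12 lay wholly lower on GSF and 7 wholly higher.

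**Figure D4:**
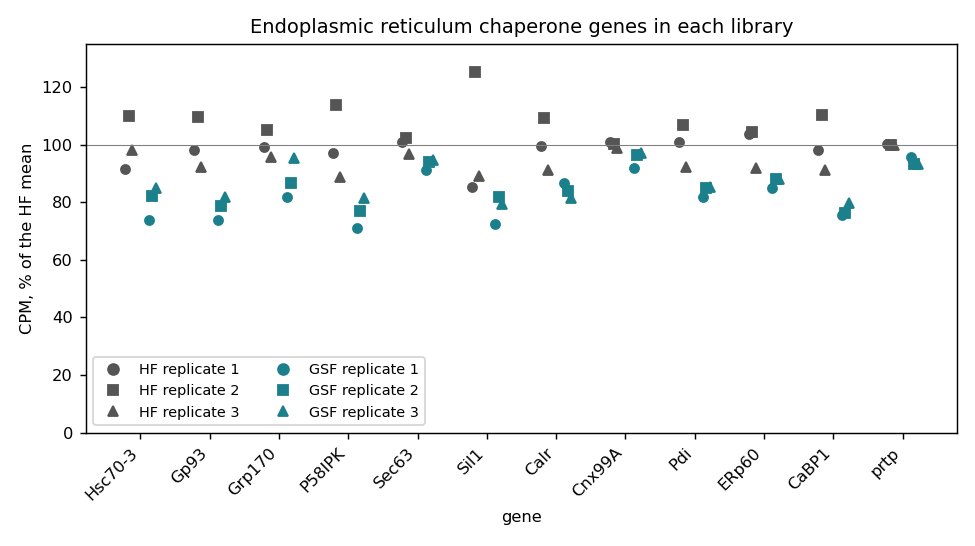
The level of each of 12 chaperone genes of the endoplasmic reticulum is plotted for each library as a percentage of the gene's HF mean, with HF in grey and GSF in teal. In every gene of this grouping, which was chosen after its values were seen, the 3 GSF points lie below the 3 HF points.

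Summed levels of some tissue markers also differed between the diets. Of the gut enterocyte markers 4 of 5 were tested and 3 of these 4 were lower on GSF, with Npc2d under 1 CPM throughout, and their summed level was 2200 to 2880 CPM on HF and 1200 to 1850 CPM on GSF. Of the fat body markers 3 of 4 were tested and 2 of these 3 were lower, with Fbp1 near 0, and their sum was 3860 to 4290 CPM on HF and 2900 to 3560 CPM on GSF. Among these 7 tested markers Mal-A1 (mean 1910 CPM on HF and 1200 on GSF) and FASN1 (2240 and 1510 CPM) were past the threshold, and they made up much of the sums. Lsp2 had the lowest log2 fold change (-3.07), with all GSF libraries below all HF libraries, but did not pass the threshold. The markers mex1 (log2 fold change 0.33) and apolpp (0.30) were higher on GSF without passing it. The sums overlapped for the 5 accessory gland markers (699 to 987 CPM on HF and 644 to 740 CPM on GSF, 4 of 5 lower) and for the 3 eye markers (2990 to 3320 CPM on HF and 2620 to 3010 CPM on GSF, 2 of 3 lower). Among these markers, SP, Acp53Ea and ninaE each had all GSF libraries below all HF libraries, and none of them passed the threshold. The sums of the 5 flight muscle markers overlapped too, at 1080 to 1310 CPM on HF and 1090 to 1210 CPM on GSF. Of these 5 markers 3 were lower on GSF, and fln was past the threshold (log2 fold change -0.70, adjusted p 0.0135 in edgeR). Act88F and TpnC41C were higher on GSF without passing it. The part of these tissues in the level of the endoplasmic reticulum chaperones was not tested.

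The J proteins hardly differed between the diets. DnaJ-1, the heat-inducible J protein and the highest per length (70.5 CPM per kb on HF and 70.0 on GSF), was at 131, 166 and 160 CPM on HF and at 129, 169 and 156 CPM on GSF. The libraries of the same number were close to each other on both diets. All 3 J proteins had a log2 fold change of -0.01, with standard errors from 0.08 to 0.13. All 1472 bp of DnaJ-60 are shared with CG42568, which had the same count, and 509 bp of DnaJ-H lie opposite Sirt1. Overlaps of 10 to 87 bp with a gene on the other strand were annotated for Hsp27, Hsp68, Hsp83, Hsp70Ab, CCT5 and CCT7.

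Hsp83, the cytosolic HSP90 of the fly, was second in level per length to Hsc70-4, with 427 CPM per kb on HF and 482 on GSF. It was at 1320, 1380 and 1090 CPM on HF and at 1360, 1540 and 1380 CPM on GSF. HF replicate 3 was the lowest library and the diets overlapped. GSF exceeded HF by a log2 fold change of 0.18 ± 0.10 (SE; 95% interval -0.07 to 0.42) with an adjusted p of 0.422 in edgeR, and by 0.08 without HF replicate 3.

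All 4 HSP60 genes had a log2 fold change below 0, from -0.09 to -0.04, and none was past the threshold. The median of the family was -0.08, and 0.04 without HF replicate 3, where Hsp60B, Hsp60C and Hsp60D were above 0. Hsp60C, required for the making of sperm, was the highest per length (168 CPM per kb on HF and 159 on GSF). It was at 381, 288 and 420 CPM on HF and at 354, 304 and 371 CPM on GSF, with replicate 2 lowest and replicate 3 highest on both diets. Hsp60A, the general mitochondrial form, showed no such order, at 320, 308 and 298 CPM on HF and at 275, 303 and 295 CPM on GSF.

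Hsp60B, which is needed for sperm individualization, Hsp60D and Hsc70-2 followed Hsp60C. In each of these 4 genes replicate 2 was the lowest and replicate 3 the highest library on both diets. Their summed level was 833, 641 and 936 CPM on HF and 787, 681 and 825 CPM on GSF. The 7 testis markers summed to 1140, 871 and 1240 CPM on HF and to 1140, 972 and 1130 CPM on GSF, and 6 of the 7 were lowest in replicate 2 on both diets. The part of testis content in the levels of these members was not tested.

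All 8 CCT genes had a positive log2 fold change, between 0.08 and 0.26 with a median of 0.15, and none was past the threshold. Their summed level was 865, 862 and 662 CPM on HF and 894, 939 and 831 CPM on GSF. HF replicate 3 was the lowest library for each of the 8 genes, where 22.1% of all genes were lowest in it. Without HF replicate 3 the median log2 fold change was 0.03, with CCT6 at -0.03 and CCT8 at -0.02, and it lay between 0.11 and 0.22 when any other library was left out. Replicate 3 was also the lowest library on GSF for all 8 genes, against 23.8% of all genes that were lowest in replicate 3 on both diets.

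CCT1 was at 94.3, 93.0 and 70.5 CPM on HF and at 107, 107 and 94.5 CPM on GSF. CCT2 was at 114, 112 and 85.5 CPM on HF and at 125, 134 and 114 CPM on GSF. In both the GSF libraries were above the HF libraries, by a narrow margin between GSF replicate 3 and HF replicate 1. Both had a log2 fold change of 0.26 ± 0.12 (SE), and of 0.14 without HF replicate 3, with all-library adjusted p of 0.288 for CCT1 and 0.293 for CCT2 in edgeR. With the replicate block both were past the threshold, with adjusted p of 0.0428 and 0.04998, and they were the only members higher on GSF among the 3 called in that fit.

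CCT5 had the highest level per length of the subunits, with 66.1 CPM per kb on HF and 73.5 on GSF, and the other 7 lay between 43.4 and 57.4 on HF. It was at 144, 142 and 107 CPM on HF and at 147, 153 and 137 CPM on GSF. CCT3 was at 106, 102 and 81.5 CPM on HF and at 105, 114 and 101 CPM on GSF. In these the diets overlapped, as in CCT4, CCT6, CCT7 and CCT8, and the log2 fold changes were 0.15 ± 0.12 and 0.15 ± 0.11 (SE). Of 7 related genes of chaperonin assistance and prefoldin, 4 were higher and 3 lower on GSF with a median of 0.01, and none was past the threshold.

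**Figure D5:**
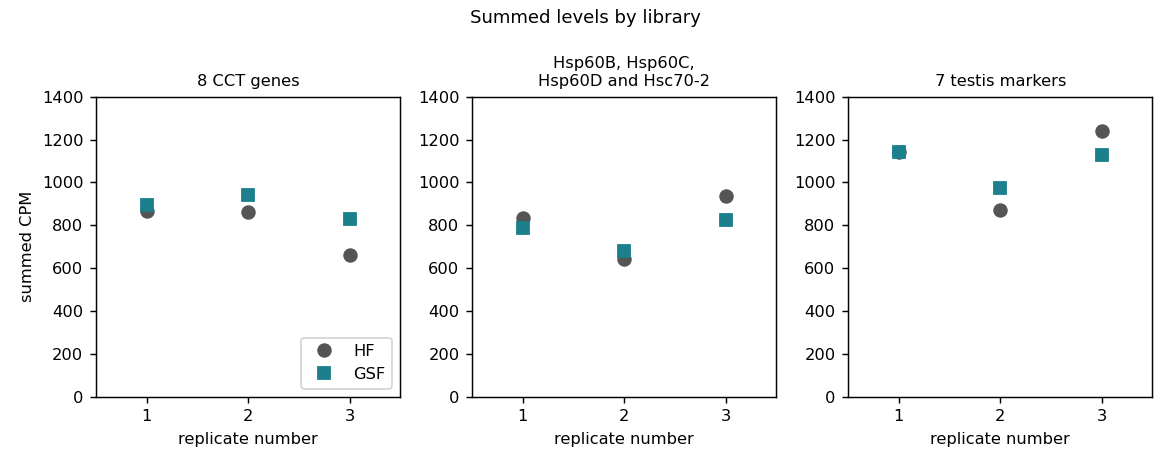
Summed CPM is plotted against replicate number for the 8 CCT genes, for Hsp60B, Hsp60C, Hsp60D and Hsc70-2, and for the 7 testis markers, with HF as circles and GSF as squares. The CCT sum is lowest in replicate 3 on both diets, and the other sums are lowest in replicate 2 on both diets.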

How the data were processed

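RNA of whole male flies was sequenced by the authors in 6 libraries, 3 per diet. The authors removed adaptors and reads under 36 bp with Trimmomatic, aligned with HISAT2 (version 2.1.0, per the submitters' processing notes) to bdgp6, converted alignments with SAMtools (version 1.8) and counted with Rsubread; the deposited values are raw counts per FlyBase gene. The strand and multi-mapping settings are not given in the sources used here. The authors' table of the comparison (14143 genes, with their log2 fold changes, p-values and FDR) was used only for its symbols.

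Counts were analysed in R 4.3.3. Genes reaching 1 CPM in 3 or more libraries were retained, scaled by TMM and compared with edgeR 4.0.16 (quasi-likelihood test, two-sided, Benjamini-Hochberg adjustment over 13373 genes); called means p under 0.01 and adjusted p under 0.05, the thresholds of the study's methods. The standard error of a log2 fold change is its size over the square root of F. DESeq2 1.42.0 was an alternative, as were its size factors, library size alone, 1 CPM in all 6 libraries, no filter, summed Hsp70 copies, a block for replicate number, and fits omitting each library. The tests were checked on simulated counts. Lengths and coordinates are of the Ensembl annotation BDGP6.54, which may be a later release than the counts used; 17598 of 17737 genes had a symbol in the reference tables.

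Libraries of the same number deviated together from their diets' means, with correlations across genes of 0.188, 0.247 and 0.476, against -0.309 to 0.115 for different numbers. The numbers were therefore treated as pairing the libraries in the fit with a replicate block, from the counts alone, since no source says what a number shares. The main comparison did not use this pairing, and its standard errors, intervals and adjusted p-values are unpaired.

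The members and lists were chosen with earlier results of these data known. Values by library are given for the members with the smallest p up to 12, each Hsp70 copy, the most abundant member per length of each family and, of the related genes, the called gene, Hsf and up to 4 more with the smallest p. Hsp23, Hsp60A, Csp, lncRNA:Hsromega, viaf, CG7130, the ratios of Hsp70 copies, the sum with Hsc70-2 and the exon structure were added after their values were seen. Of 79 related entries 68 were used, 5 matched no gene, 4 were members and 2 repeats.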

Additional observations from a re-analysis of the deposited data

How the results depend on the processing

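Scaling, filter and summed Hsp70 copies changed the call of 0 members and the direction of none of the 36. The count of members called higher was 0 in the main comparison, 2 with the replicate block and 0 to 3 with each library left out. The count called lower was 0, and 1 with the block, 0 to 1 with each library left out, 3 by DESeq2 and 3 at an unadjusted p under 0.05. Related genes called higher were 0, with 1 under the block (viaf) and 3 at an unadjusted p under 0.05. Related genes called lower were 1, and 0 under DESeq2's size factors, library size alone, 1 CPM in all 6 libraries or no filter, 4 with the block (CaBP1, Gp93, P58IPK and CG7130), 4 by DESeq2 (CaBP1, Gp93, P58IPK and Pdi), 7 at an unadjusted p under 0.05 and 0 to 1 with each library left out. With each library left out, the log2 fold change changed sign for Hsp68 (range -0.85 to 0.063), Hsp70Aa (-0.28 to 1.04), Hsp70Ab (-0.27 to 1.04), Hsp70Ba (-1.03 to 0.64), Hsp70Bb (-0.999 to 0.74), Hsp70Bbb (-1.02 to 0.69), Hsp70Bc (-1.02 to 0.73), Hsp60C (-0.21 to 0.041) DnaJ-1 (-0.11 to 0.092), DnaJ-60 (-0.052 to 0.048), DnaJ-H (-0.06 to 0.037), Hsp60B (-0.224 to 0.046), Hsp60D (-0.147 to 0.086), Hsc70-2 (-0.144 to 0.093), Hsp67Ba (-0.054 to 0.227), Hsp67Bc (-0.417 to 0.084), CCT6 (-0.03 to 0.145) and CCT8 (-0.021 to 0.148), and for none of the other 18 members. These fits hold fewer samples. Among the members, related genes and markers named, the replicate block changed the calls of Hsc70-3, CCT1, CCT2, Gp93, P58IPK, CG7130 and viaf. It also changed those of the markers mex1, Lsp2, SP and Acp53Ea and of the yolk marker Yp3, and no others. No scaling or filter moved the median log2 fold change of all genes past 0.02. The coefficient of variation that counting alone gives (Poisson) had a median over members of 1.25% on HF and 1.19% on GSF, against 16.1% and 6.68% observed, and reached 9.28% and 9.22% in Hsp67Bc.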

Other observations

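Of the related genes, Csp, a J protein of synaptic vesicles, was at 95.9, 94.8 and 89.7 CPM on HF and at 103, 112 and 105 CPM on GSF (log2 fold change 0.19 ± 0.06, SE; adjusted p 0.158 in edgeR). All of its GSF libraries lay above the HF libraries. The 5 other genes of the alpha-crystallin family had 2 higher and 3 lower on GSF, around a median log2 fold change of -0.02 and with none past the threshold. The other 25 J proteins had 12 higher and 13 lower with a median of 0.00, and the 19 helpers of HSP70 and HSP90 had 8 higher and 11 lower with a median of -0.01; no gene of either group was past the threshold in edgeR. The noncoding heat shock transcript lncRNA:Hsromega, which gathers RNA-binding proteins in the nucleus under heat, had a log2 fold change of 0.10 ± 0.11 (SE; adjusted p 0.739 in edgeR).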
